A study of Mus musculus with 24 samples.

Results

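The loss of PU.1 was examined in naive B cells, as the comparison of 2 PU.1 cKO libraries (Spi1fl/fl Cd23T/+) with 2 control libraries (Cd23T/+), 4 of the 24 libraries of a study of PU.1 and SpiB in mouse lymph node B cells. These 4 were chosen by their titles, and the comparison was described across the 11795 genes with at least 0.5 CPM (counts scaled to a common library size) in at least 2 of them, out of 26662 entries with a gene symbol. The mice were labelled C57BL/6, and were 6 to 20 weeks old. Both groups carry Cd23T/+, a Cre recombinase under the Cd23 promoter that becomes active as B cells leave the immature stage, so the Cre is shared and the groups differ in the floxed Spi1 alleles. Cells were sorted as CD3- B220+ CD138-. Libraries of the 2 genotypes that lack SpiB are used for reference. SpiB KO cells (Spi1fl/fl Cd23+/+ Spib-/-) carry floxed Spi1 without the Cre, and in PU.1 SpiB DKO cells (Spi1fl/fl Cd23T/+ Spib-/-) both factors are targeted. Cultured cells of all genotypes had received IL-4 for 48 h together with CD40L or LPS. Replicates are separate samples of each genotype, 2 per group.

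PU.1, encoded by Spi1, is an ETS family transcription factor that binds purine-rich DNA around a GGAA core, alone or together with IRF4 or IRF8. It is essential for the early steps of the lymphoid and myeloid lineages, and in B cells it shares many target sites with its close relative SpiB. Follicular B cells, the main B cells of lymph nodes, receive signals through the B cell receptor (BCR), Toll-like receptors, cytokine receptors and CD40, and present antigen on MHC class II.

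The 4 libraries held 14231188 to 15901491 counts on genes. The control libraries differed more from each other than the PU.1 cKO libraries did, with 269 genes over 2-fold apart between them against 76 between the PU.1 cKO libraries. The ribosomal precursor Rn45s made up 3.62% of counts in control replicate 1, against 0.185% to 0.517% in the other 3 libraries. Control replicate 2 was higher in genes with long transcripts. Its median log2 ratio to control replicate 1 was -0.089 over the 2158 genes with the shortest transcripts and 0.16 over the 2158 with the longest. Between PU.1 cKO replicates 2 and 1 the same ratio was -0.087 and 0.068. Of the genes with the shortest transcripts 3.24% were called lower in PU.1 cKO, and of those with the longest 12.8%. The part of these differences in the falls reported here was not tested. The B cell receptor gene Cd79a was high and not called, at 2871 and 2892 CPM in control and 3153 and 3009 CPM in PU.1 cKO. The 10 neutrophil genes of the marker lists did not reach the level needed for a test, nor did Cd3e, Csf1r or Cd14. Xist and 4 Y-linked genes were counted in each library, and edgeR called none of these 5 (1 at an unadjusted p under 0.05, none in DESeq2 or voom).

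Genes of the MHC stood apart from the label of the mice before any other result. H2-Ea, which encodes the alpha chain of the class II molecule I-E and is known to be inactive in the C57BL/6 strain, is listed as the pseudogene H2-Ea-ps (Entrez ID 100504404). It had 3 and 2 counts in the control libraries and 39689 and 35091 counts in the PU.1 cKO libraries, that is 0.21 and 0.14 CPM against 2521 and 2209 CPM. SpiB KO and PU.1 SpiB DKO libraries, which also carry floxed Spi1, held 0.37 to 0.85 CPM, as low as control. The high level was thus seen in the PU.1 cKO libraries and in neither other group with the floxed gene. The same held in both cultures, where H2-Ea-ps stood at 1667 and 2770 CPM in PU.1 cKO with CD40L + IL-4 and at 1466 and 1145 CPM with LPS + IL-4, and at or below 0.65 CPM in the control cultures. Loss of PU.1 and a difference between the mice in the MHC cannot be told apart for these genes. The number of DE genes is therefore also given without the 121 genes tested between the first and the last H2 gene on chromosome 17 (33938909 to 37483554, GRCm38).

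Genes were called differentially expressed (DE) where edgeR's quasi-likelihood test gave an adjusted p (Benjamini-Hochberg) under 0.15 and the fold change was over 1.5. Levels are CPM normalized by the TMM method over the 8 naive libraries, changes are log2 fold changes of PU.1 cKO minus control with their standard error (SE), and all adjusted p-values are edgeR's over all genes tested. In PU.1 cKO cells 1332 genes were DE (11.3% of those tested), of which 819 were lower (6.94%) and 513 higher (4.35%). The median log2 fold change was -0.01 over all genes tested and the median size among DE genes 0.95 for the falls and 1.07 for the rises. Falls were mostly moderate. Over 2-fold changes numbered 376 falls and 277 rises, and over 4-fold changes 87 falls and 95 rises. At an adjusted p under 0.05 there were 736 DE genes. The control and PU.1 cKO libraries did not overlap for 1328 of the 1332 DE genes, nor for 6235 of the 11795 genes tested, so lack of overlap alone says little of a gene. In 379 of the 819 falls and 346 of the 513 rises, each control library differed by more than 1.5-fold from each PU.1 cKO library.

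The number of DE genes depended on single libraries. Leaving out control replicate 1 gave 2044 and leaving out control replicate 2 gave 904, while leaving out PU.1 cKO replicate 1 or 2 gave 618 or 651. Without the genes of the MHC window it was 1294. The smallest two-sided p that exact permutation allows for 1 gene in this design is 0.333, so the tests rest on the spread estimated across genes and over the 8 naive libraries.

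**Figure D1:**
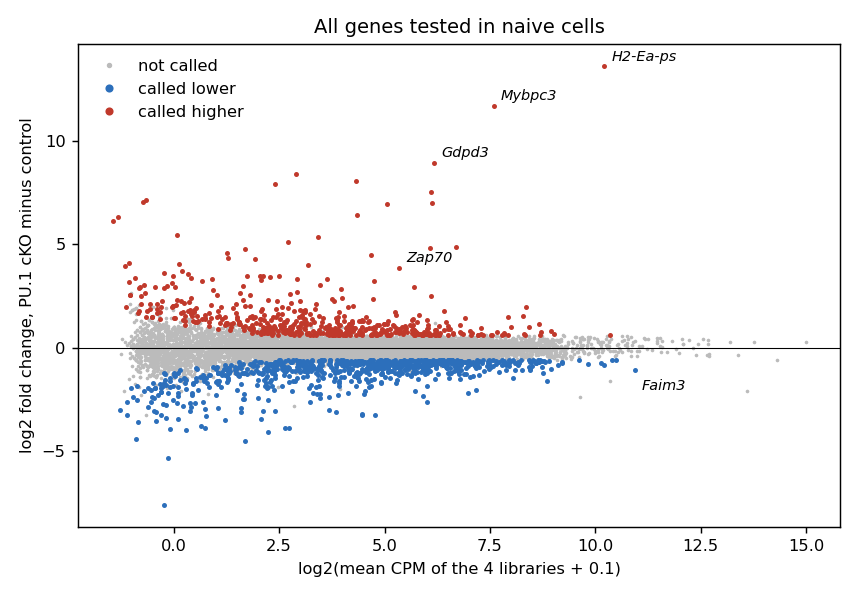
Log2 fold change of PU.1 cKO minus control against the mean level of the 4 libraries, as log2(CPM + 0.1), with 1 point for each of the 11795 genes tested in naive cells. Genes called lower (819) and higher (513) are coloured, and the rises of H2-Ea-ps, Mybpc3 and Gdpd3 lie above those of other genes of their level.

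Spi1 (Entrez ID 20375) was the check of the genotype. It had 155 and 173 CPM in the control libraries and 59.3 and 53.1 CPM in the PU.1 cKO libraries, a fall of 1.54 on the log2 scale (SE 0.11, adjusted p = 6.43e-05). Spi1 counts remained in both PU.1 cKO libraries. Counts cover the whole gene, so reads of the deleted exon, reads of the other exons and cells that kept the gene cannot be told apart from the counts. From read coverage of the floxed exon, the study reported complete inactivation in naive PU.1 cKO cells. In naive PU.1 SpiB DKO cells it reported that this exon was markedly retained. Against SpiB KO, the group with floxed Spi1 but no Cre, Spi1 in PU.1 cKO fell by the same 1.54 (adjusted p = 4.21e-05). Mybpc3 (Entrez ID 17868), which encodes a myosin binding protein of heart muscle, lies next to Spi1 on chromosome 2 from 91118114 to 91136516 (GRCm38). It had 1 and 2 counts in control and 6132 and 6044 in PU.1 cKO, or 389 and 381 CPM, a ratio of 3646 with a 95% counting interval of 1247 to 17681. It was also high, at 268 and 337 CPM, in PU.1 SpiB DKO, which also carries floxed Spi1 with the Cre, and at or below 0.65 CPM in SpiB KO, which lacks the Cre. Spi1 itself stood at 104 and 111 CPM in PU.1 SpiB DKO, higher than in PU.1 cKO and lower than the 164 CPM of both SpiB KO libraries. No other gene within 1 Mb of Spi1 was DE among the 26 tested there, and 3 of the 41 within 5 Mb were (7.32%).

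Spib itself held 1469 and 1351 CPM in control and 2170 and 1917 CPM in PU.1 cKO. Both PU.1 cKO libraries lay above both control libraries, with a difference of 0.54 (SE 0.11, adjusted p = 0.0226) that did not reach 1.5-fold. Without control replicate 1 it was 0.60, and without PU.1 cKO replicate 2 it was 0.63, and both passed the threshold. Of the 17 ETS factors tested, 4 fell and none rose, with a median of -0.23. These 4 include Spi1, the gene targeted in these mice, beside Etv5, Etv6 and Spic. Etv5 declined from 8.46 and 8.23 CPM to 3.62 and 3.84 CPM (log2 fold change -1.16, adjusted p = 0.0112). Spic, the third member of the PU.1 subfamily, was near the limit of detection, with 11 and 13 counts in control and 3 and 3 in PU.1 cKO, and its call was lost without control replicate 2 or either PU.1 cKO library (adjusted p = 0.2 to 0.272). None of the 8 IRF genes was called by edgeR, DESeq2 or voom, and 2 had an unadjusted p under 0.05 in edgeR. Irf4 stood at 189 and 214 CPM in control and 172 and 187 CPM in PU.1 cKO, and Irf8, the other known partner of PU.1, at 631 and 583 CPM and at 558 and 585 CPM. Leaving out control replicate 2 or either PU.1 cKO library reduced the ETS factors that fell to 2.

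Before the further results, the sequences at which PU.1 could bind in some of these genes are shown. The letters GAGGAAGT, a core that PU.1 is known to favour, were searched on both strands in promoter windows from 250 bases before to 50 after the start of transcription (RefSeq, GRCm38.p6). Windows could be matched for 93 of the 116 DE genes named by the rule given in the methods, and 10 of these held the core. The core was found in 3.20% of all 32851 windows and in 3.99% of the 9003 genes tested that had a window. Only 77.2% of the genes called lower and 75.2% of those called higher could be matched, so the shares cannot be compared between groups of genes. Of these 10 genes, 7 that act in BCR signalling, inhibition, innate sensing or survival of B cells are shown as examples, 6 that fell and 1 that rose. The rise, of Bcl2l14, rested on few counts, 4 and 5 in control and 18 and 16 in PU.1 cKO (log2 fold change 1.74). Its call was lost with DESeq2 and without control replicate 2 or either PU.1 cKO library. The other 3 were Dusp5, Ly6c2 and Cd5, the last also a member of the list of BCR co-receptors. The stretches are printed with the core or its reverse complement ACTTCCTC in capitals.
Bcl2a1d: tgaatcagaaGAGGAAGTggtgtgttgc
Bcl2a1b: agaagaggaaGAGGAAGTggtgtgttgc
Pirb: tcacaccattGAGGAAGTcagagcatgg
Rasgrp3: gaaagaatagGAGGAAGTgggcctgcca
Pik3cg: taactgcaacACTTCCTCtgcatctgga
Tlr9: tgaaagtgtcACTTCCTCaattctctga
Bcl2l14: ggagcttaatGAGGAAGTggcttccttt
In order, they lie at chr9:88731937-88731964 (minus strand), chr9:89199115-89199142 (plus), chr7:3720485-3720512 (minus), chr17:75435845-75435872 (plus), chr12:32208644-32208671 (minus), chr9:106222598-106222625 (plus) and chr6:134414415-134414442 (plus). A match of letters is not a bound site, and binding was not measured in these files.

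None of the 8 genes of the BCR chains was called by edgeR, DESeq2 or voom (3 at an unadjusted p under 0.05 in edgeR), and their median was 0.03. Ighm was at 7198 and 7188 CPM in control and 5328 and 5892 CPM in PU.1 cKO, a difference of -0.36 (adjusted p = 0.0876) that did not reach 1.5-fold. Of 42 genes of the signalling cascade below the receptor, 11 fell and none rose, with a median of -0.33 against -0.01 over all genes. Over all genes tested 6.94% were called lower and 4.35% higher, and the counts of every list stand against these shares. The lists were chosen with earlier results of these data known, so these shares give no test of a list. Without one library at a time the falls numbered 6 (without PU.1 cKO replicate 1) to 16 (without control replicate 1). Rasgrp3, an exchange factor that activates Ras downstream of diacylglycerol, had 186 and 247 CPM in control and 83.4 and 88.2 CPM in PU.1 cKO. Its log2 fold change was -1.34 (SE 0.21, adjusted p = 0.00642). Pik3cg, a catalytic subunit of phosphoinositide 3-kinase, fell from 205 and 238 CPM to 117 and 125 CPM, by 0.88 on the log2 scale (SE 0.13, adjusted p = 0.00438). Fyn, a kinase of the Src family, fell from 75.6 and 77.5 CPM to 41.5 and 42.1 CPM, by 0.87 (SE 0.10, adjusted p = 0.00148). Central kinases and adaptors such as Btk, Blnk and Plcg2 were not called, with changes of -0.30, -0.06 and -0.35.

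Co-receptors and inhibitory receptors showed 5 falls and no rise among 16 genes, with a median of -0.39, and 1 to 6 falls with a library left out. The firmest was Pirb, an inhibitory receptor for MHC class I that carries phosphatase-recruiting motifs. It had 15.2 and 17.2 CPM in control and 4.07 and 4.47 CPM in PU.1 cKO (log2 fold change -1.93, SE 0.21, adjusted p = 0.000792), and its promoter window holds the core shown above. Ptprc, which encodes CD45 and the B220 used in the sort, had 1011 and 1285 CPM in control and 572 and 751 CPM in PU.1 cKO. Its change of -0.79 (adjusted p = 0.0477) lost the call without control replicate 2 (-0.61, adjusted p = 0.185) or PU.1 cKO replicate 1 (-0.61, adjusted p = 0.303). Nfam1, an ITAM-bearing receptor of B cells, was among the 10 deepest falls of genes with at least 5 CPM in control. It went from 47.0 and 52.0 CPM to 4.95 and 5.16 CPM, by -3.29 (SE 0.18, adjusted p = 8.38e-06). The 19 protein tyrosine phosphatases gave 5 falls and 2 rises, among them a fall of Dusp4, a MAP kinase phosphatase, from 49.1 and 44.5 CPM to 17.1 and 17.9 CPM, and a rise of Ptpn22, a brake on antigen receptor signalling, from 30.9 and 26.2 CPM to 46.2 and 59.8 CPM. The falls in this list numbered 1 without PU.1 cKO replicate 1.

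Among Fc receptors and their relatives 3 of 10 genes fell and none rose, with a median of -0.34. Faim3, also named Fcmr, is the receptor for IgM and made the largest change in CPM of the genes called lower. It had 2525 and 2770 CPM in control and 1271 and 1243 CPM in PU.1 cKO, so that both PU.1 cKO libraries stood at nearly the same low level (log2 fold change -1.07, SE 0.11, adjusted p = 0.00065). Fcer2a, which encodes CD23 and whose promoter drives the Cre in both groups, fell from 1315 and 1470 CPM to 808 and 872 CPM, by 0.73 on the log2 scale (SE 0.14, adjusted p = 0.0133). In SpiB KO cells it held 442 and 463 CPM, fewer than in PU.1 cKO.

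**Figure D2:**
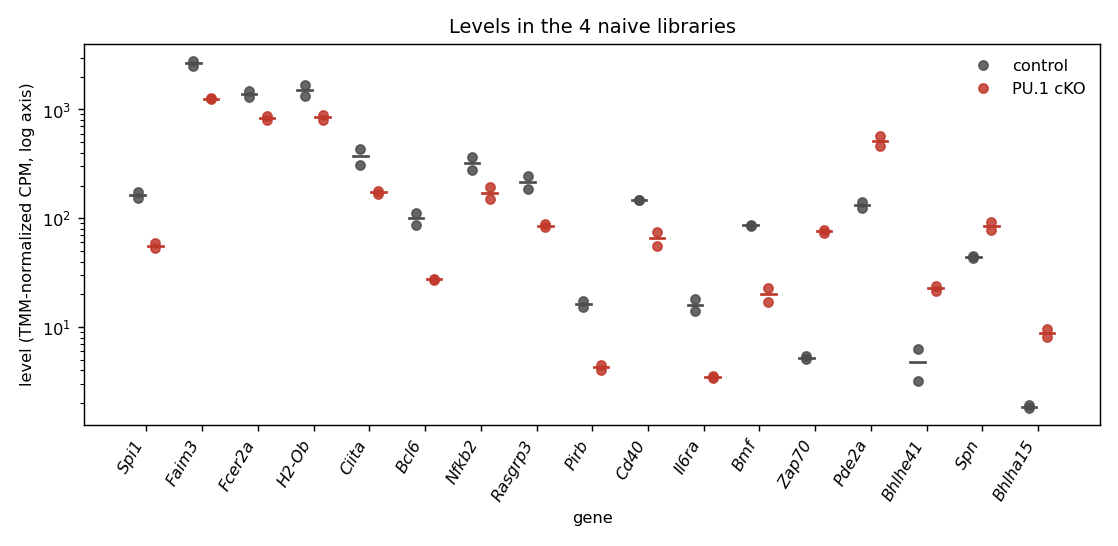
Levels of 17 genes in the 2 control and 2 PU.1 cKO naive libraries, as TMM-normalized CPM on a log axis, with a point for each library and a line at the mean. Zap70 and Bhlha15 stand above control while Spi1, Bcl6 and Faim3 stand below it.

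Cd40 and some receptors for cytokines were called lower, beside 6.94% called lower over all genes tested. Cd40, the receptor for CD40L, had 148 and 147 CPM in control and 75.6 and 55.9 CPM in PU.1 cKO (log2 fold change -1.16, SE 0.14, adjusted p = 0.00153). It was the single fall among 18 TNF receptors and TRAFs, where Traf4 was called higher at 0.59 and not without control replicate 1 (0.48, adjusted p = 0.0571) or PU.1 cKO replicate 2 (0.46, adjusted p = 0.194). Tnfrsf13c, the receptor for the survival factor BAFF, stood at 520 and 583 CPM in control and 468 and 522 CPM in PU.1 cKO, and its difference of -0.16 (adjusted p = 0.463) was not called under any setting tried. Of 28 cytokine receptor genes 5 fell and 1 rose, with a median of -0.26. Il6ra, the receptor for interleukin 6, had 14.1 and 18.1 CPM in control and 3.56 and 3.40 CPM in PU.1 cKO (log2 fold change -2.21, adjusted p = 0.000983). Il9r, the receptor for interleukin 9, declined from 40.9 and 52.1 CPM to 18.3 and 9.76 CPM (-1.73, adjusted p = 0.00832). Csf2rb, the shared beta chain of the receptors for GM-CSF and interleukins 3 and 5, fell by 1.04. Il4ra had 442 and 574 CPM in control and 314 and 322 CPM in PU.1 cKO, a difference of -0.68 that shrank to -0.47 without control replicate 2 and then missed the 1.5-fold threshold. Of 19 genes of Toll-like receptors, their co-receptors and their signalling proteins, 3 were called lower, all by small amounts. These were Tlr9, Ly86 and Irak2, and the last 2 also lost their calls with voom (-0.54 and -0.53). Tlr9, a sensor of CpG DNA, had 358 and 349 CPM in control and 239 and 201 CPM in PU.1 cKO (-0.68, adjusted p = 0.0106). Tlr4 and Tlr7 were not called, at 0.21 and 0.22. Without PU.1 cKO replicate 2 none of the 3 was called, and Tlr9 then stood at -0.56 (adjusted p = 0.123).

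Homing receptors gave 5 falls and 1 rise among 26 genes, with a median of -0.26, where 6.94% of all genes tested fell and 4.35% rose. Gpr183, which guides B cells to the outer follicle by sensing oxysterols, had 235 and 217 CPM in control and 100.3 and 103.7 CPM in PU.1 cKO (log2 fold change -1.15, SE 0.17, adjusted p = 0.00388). Cxcr4 was called lower at 403 and 429 CPM against 154 and 242 CPM, and its change of -1.07 (adjusted p = 0.0946) lost the call without control replicate 2 (-1.02, adjusted p = 0.212), PU.1 cKO replicate 1 (-0.78, adjusted p = 0.443) or PU.1 cKO replicate 2 (-1.42, adjusted p = 0.156). Ackr3, a scavenging receptor for the CXCR4 ligand CXCL12, was the rise of this list. It had 5 and 1 counts in control and 103 and 89 in PU.1 cKO, a ratio of 28.7 with a 95% counting interval of 13.0 to 79.3. Cyp27a1, an enzyme that makes oxysterols from cholesterol, was among the deepest falls, from 6.36 and 8.65 CPM to 0.83 and 0.50 CPM (log2 fold change -3.48, SE 0.31, adjusted p = 0.000259). Cxcr5, Ccr7 and S1pr1, which direct follicular entry and exit, were not called at -0.46, 0.08 and 0.31.

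Genes of antigen presentation on class II had a median of -0.43, and most did not reach 1.5-fold. Of 13 genes 4 fell and 1, H2-Ea-ps, rose. Ciita, the master activator of class II genes, had 312 and 430 CPM in control and 168 and 179 CPM in PU.1 cKO (log2 fold change -1.09, SE 0.20, adjusted p = 0.0111). H2-Ob and H2-Oa, the subunits of H2-O that restrain peptide loading in B cells, also declined. H2-Ob fell from 1687 and 1336 CPM to 891 and 807 CPM (-0.83, adjusted p = 0.00931), and H2-Oa from 521 and 451 CPM to 318 and 262 CPM (-0.74, adjusted p = 0.0142), the latter call being lost without PU.1 cKO replicate 2 (-0.60, adjusted p = 0.151). H2-Eb2, a further class II beta chain gene, fell from 687 and 524 CPM to 264 and 243 CPM (-1.26, adjusted p = 0.00137). Cd74, the invariant chain, had a change of -0.58 (adjusted p = 0.0284) and H2-Ab1 one of -0.43 (adjusted p = 0.0607), both under 1.5-fold. Ciita is the only one of the called genes of this list outside the MHC window.

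Class I genes gave 7 rises and 1 fall among 21, with 13 not called and a median of -0.05. Of these 7 rises, 6 lie in the MHC window and were highest in the PU.1 cKO libraries among the 4 genotypes. Among them H2-Q4 and H2-Q6 were expressed in every genotype. H2-Q4 had 153 and 168 CPM in control and 456 and 474 CPM in PU.1 cKO, and H2-Q6 130 and 126 CPM and 360 and 362 CPM. H2-Q2 had 0.63 and 0.85 CPM in control and 136 and 139 CPM in PU.1 cKO, against 0.87 to 0.90 CPM in SpiB KO and 0.64 to 1.12 CPM in PU.1 SpiB DKO. H2-Q10 had 1.05 and 1.06 CPM against 132 and 145 CPM, and H2-K2 6.15 and 7.37 CPM against 197 and 204 CPM. These near-identical class I genes can exchange reads, so the share of each is uncertain. H2-K1, H2-D1 and B2m, the classical class I chains and their light chain, were not called at -0.20, 0.07 and 0.15. Cd1d1, which presents lipids and lies on chromosome 3, rose from 19.6 and 20.1 CPM to 43.9 and 43.3 CPM (log2 fold change 1.14, adjusted p = 0.00547). In all, 32 of the 121 genes of the MHC window were DE (26.4%), 19 higher and 13 lower, against 11.3% of all genes tested.

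**Figure D3:**
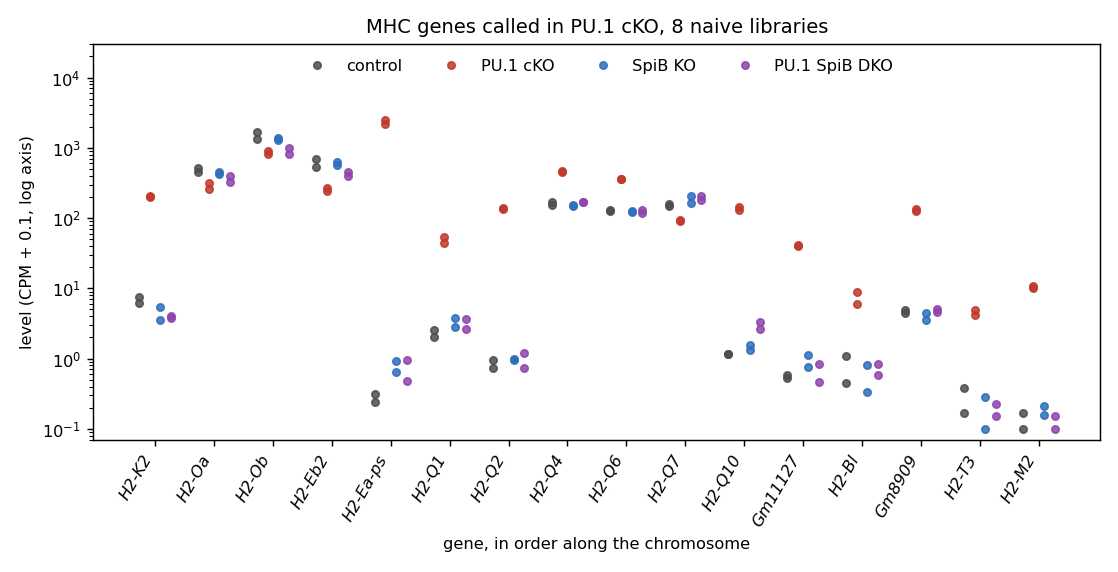
Levels of 16 DE genes of the MHC in the 8 naive libraries, as CPM + 0.1 on a log axis, with a point for each library and a colour for each genotype. H2-Ea-ps and most class I genes are high in the PU.1 cKO libraries alone, while H2-Oa and H2-Eb2 are lowest there.

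Transcription factors of B cells gave 10 falls and 2 rises among 35 genes, with a median of -0.35 and 5 to 12 falls with a library left out. Bcl6, the repressor that directs the germinal centre reaction, had 87.2 and 113 CPM in control and 27.8 and 27.3 CPM in PU.1 cKO (log2 fold change -1.86, SE 0.16, adjusted p = 0.000168). Nfkb2, a subunit of the non-canonical NF-kappaB pathway, fell from 279 and 363 CPM to 193 and 151 CPM (-0.90, adjusted p = 0.0104). Bhlhe41, a repressor known from B-1a cells, rose from 6.29 and 3.19 CPM to 21.7 and 24.1 CPM (2.27, SE 0.27, adjusted p = 0.00137). Pax5, Ebf1 and Foxo1, which hold B cell identity, were not called at -0.51, -0.23 and -0.28.

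Genes tied to plasma cells and germinal centres moved in both directions, with 4 falls and 3 rises among 14. Igj, the J chain of secreted antibody, had 16.8 and 7.73 CPM in control and 0.95 and 0.69 CPM in PU.1 cKO. Its fall of 3.89 on the log2 scale (adjusted p = 0.0212) lost the call without PU.1 cKO replicate 2 (-3.67, adjusted p = 0.152). Sdc1, which encodes CD138, fell from 17.8 and 11.1 CPM to 3.49 and 3.97 CPM (-1.95, adjusted p = 0.00184), although cells bearing CD138 were excluded from each library by the sort. The near-identical IgG genes, whose reads may be shared, included the falls of Ighg3 and of Ighg2b, the latter from 4.26 and 13.3 CPM to 0.51 and 0.50 CPM. In contrast Bhlha15, which encodes the secretory regulator MIST1, rose from 1.82 and 1.91 CPM to 9.53 and 8.12 CPM (2.24, adjusted p = 0.000386), and Mzb1, an endoplasmic reticulum protein of antibody assembly, from 381 and 326 CPM to 637 and 613 CPM (0.82, adjusted p = 0.0119). The summed level of 11 plasma cell markers, most of it from Mzb1, Xbp1 and Edem1, was 936 and 865 CPM in control and 1091 and 1063 CPM in PU.1 cKO. In bulk libraries, fewer cells of a kind and less RNA per cell cannot be told apart.

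The BCL2 family, which sets the threshold for apoptosis, showed 4 falls and 2 rises among 15 genes, with a median near that of all genes. The protective gene Bcl2a1d had 8.88 and 6.31 CPM in control and 1.40 and 0.38 CPM in PU.1 cKO, and its close copy Bcl2a1b 37.1 and 26.1 CPM and 10.4 and 6.67 CPM. Both fell (by 3.09 and 1.89), and reads of these near-identical genes cannot be fully separated. Their promoter stretches shown above share the 8 letters of the core and those that follow it. Of the BH3-only genes, which promote apoptosis, Bmf and Pmaip1 were called lower. Bmf fell from 86.1 and 85.8 CPM to 22.99 and 17 CPM (-2.10, adjusted p = 0.000391) and Pmaip1, which encodes NOXA, from 23.3 and 25.2 CPM to 9.78 and 12.1 CPM (-1.15, adjusted p = 0.00849). Mcl1, Bcl2 and Bax were not called, at -0.02, -0.38 and 0.00. All 4 falls were called with each library left out in turn.

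Immediate early genes, which respond to stimulation and to the handling of cells within minutes, had the lowest median of all lists, -0.85, with 11 falls and no rise among 19. They also differed between the control libraries. Fos had 182 and 39.1 CPM in control and 23.4 and 11.9 CPM in PU.1 cKO, and its change of -2.64 (adjusted p = 0.0954) became -1.14 (adjusted p = 0.362) without control replicate 1. The call was also lost without PU.1 cKO replicate 1 (-3.21, adjusted p = 0.266) or 2 (-2.23, adjusted p = 0.334). Egr1 had 114 and 62.6 CPM in control and 34.7 and 36.9 CPM in PU.1 cKO and was called in each case (-1.30, adjusted p = 0.0104). Without control replicate 1, 7 members were called lower, and without either PU.1 cKO library 5. Of 12 heat shock genes edgeR called none (3 at an unadjusted p under 0.05), and DESeq2 and voom each called 1. The part of handling in these values was not tested.

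**Figure D4:**
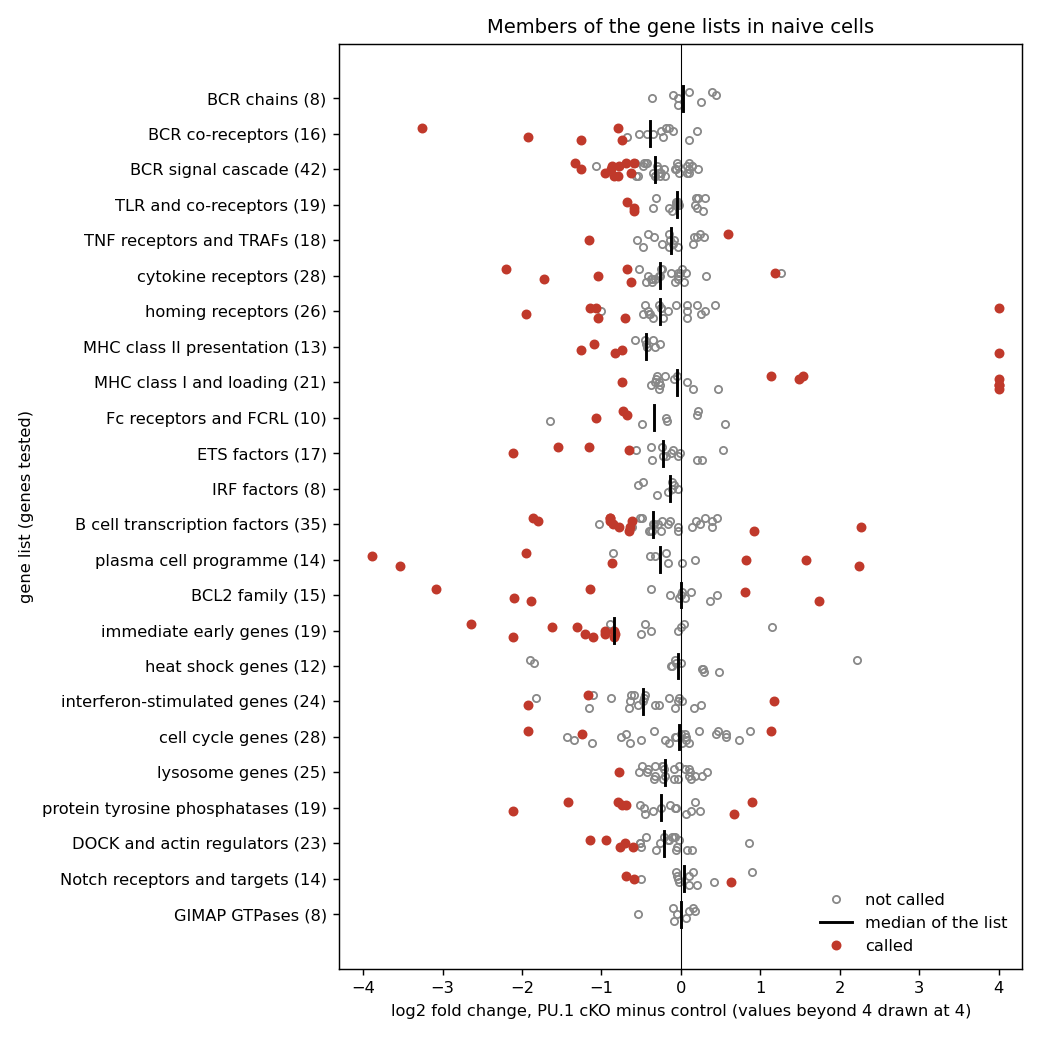
Log2 fold change of PU.1 cKO minus control for each tested member of 24 gene lists, with filled points for DE genes (values beyond 4 drawn at 4), open points for the others and a bar at the median of the list. Immediate early genes, BCR signalling genes and B cell transcription factors lie to the left of 0, and the class I list holds a group of rises of which 4 lie beyond 4.

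Interferon-stimulated genes gave 2 falls and 1 rise among 24 with a median of -0.47, which turned to 0.05 without control replicate 2. The 23 DOCK and actin regulators gave 5 falls and no rise, among them Dock8, needed for synapse formation by B cells, from 203 and 283 CPM to 124 and 129 CPM, and 2 to 8 falls with a library left out. Cell cycle genes gave 2 falls and 1 rise among 28, Notch receptors and targets 2 falls and 1 rise among 14, lysosome genes 1 fall among 25 and GIMAP GTPases no call among 8 in edgeR, DESeq2 or voom (1 at an unadjusted p under 0.05 in edgeR). Of all genes tested, 6.94% were called lower and 4.35% higher. Lgmn, an endosomal protease, was the fall among the lysosome genes, from 192 and 179 CPM to 106 and 111 CPM.

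The rises outside the MHC included some members of the T cell and B-1 cell lists, both of which also held falls. Zap70, a kinase that T cells use in place of Syk, had 5.38 and 5.11 CPM in control and 73.6 and 78.8 CPM in PU.1 cKO (log2 fold change 3.86, SE 0.15, adjusted p = 8.72e-07). Cd3d, Cd3g and Trac stood at 0.14 to 1.12 CPM in all 4 libraries, Cd4 at 6.74 to 19.0 CPM, and Cd3e was not tested. Apart from Zap70, the T cell list of 17 genes held a rise of Lck, lost without control replicate 2 (0.54, adjusted p = 0.0396, under 1.5-fold) or PU.1 cKO replicate 1 (0.58), and a fall of Cd5, lost without control replicate 1 (-0.80, adjusted p = 0.38) or either PU.1 cKO library (-1.62 and -0.96, adjusted p = 0.285 and 0.426). Without control replicate 1 the list gave 5 rises and no fall, and without control replicate 2 it gave 1 rise and 5 falls. The summed level of the list was 150 and 97.6 CPM in control and 219 and 216 CPM in PU.1 cKO. Zap70 alone made up 5.38 and 5.11 CPM of this sum in control and 73.6 and 78.8 CPM in PU.1 cKO. The part of T cells in the rises was not tested. Of 11 B-1 cell markers 3 rose, Bhlhe41, Spn and Tbx21, and 3 fell, Cd5, Zbtb20 (-1.18) and Fcrl5 (-0.68). The rises numbered 3 with each library left out, while the falls numbered 0 without either PU.1 cKO library and 1 without control replicate 2. Spn, which encodes CD43, rose from 44.8 and 43.4 CPM to 78.6 and 92.7 CPM (0.96, adjusted p = 0.00324), and Tbx21, which encodes T-bet, from 7.83 and 9.22 CPM to 22.3 and 26.2 CPM (1.51, adjusted p = 0.00088), while Cd5 was low at 1.75 and 0.99 CPM in control and 0.70 and 0.44 CPM in PU.1 cKO. Marginal zone markers likewise gave 3 rises and 3 falls among 14, and follicular markers 2 falls, Fcer2a and Cd22, among 14. Cd22 was called at -0.74 (adjusted p = 0.0928) and not without control replicate 2 (-0.29, adjusted p = 0.455) or either PU.1 cKO library (-0.65 and -0.83, adjusted p = 0.388 and 0.223). Of other cells, plasmacytoid dendritic cell markers gave 1 fall among 14 (4 rises without control replicate 1 and 4 falls without control replicate 2), macrophage markers 1 rise and 1 fall among 7, NK cell markers 1 rise among 10, stroma 1 fall among 2, and conventional dendritic and erythroid cells no call among 8 and 3 in edgeR, DESeq2 or voom, with none at an unadjusted p under 0.05 in edgeR.

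Gdpd3, a lysophospholipase, had the largest rise beyond Mybpc3 and H2-Ea-ps, with 6 and 2 counts in control and 2316 and 2229 in PU.1 cKO, a ratio of 510 with a 95% counting interval of 259 to 1183. SpiB KO and PU.1 SpiB DKO libraries held intermediate levels of 26.0 to 43.9 CPM. Gprc5b and Ltbp4, also among the largest rises, were at 11.2 and 18.4 CPM and at 5.59 and 8.50 CPM in PU.1 cKO and at or below 0.56 CPM in control. Pde2a, a phosphodiesterase that degrades cyclic nucleotides, rose from 142 and 126 CPM to 459 and 574 CPM (log2 fold change 1.95, SE 0.14, adjusted p = 6.15e-05). Crip1, a LIM domain protein, rose from 248 and 255 CPM to 566 and 544 CPM (1.14, adjusted p = 0.00157). Trp53inp1, a p53 target, rose from 244 and 216 CPM to 448 and 463 CPM (0.99, adjusted p = 0.000965), and Scd2, a fatty acid desaturase, from 302 and 315 CPM to 483 and 567 CPM (0.77, adjusted p = 0.00405). Eef1b2 was called at 0.61 and not without control replicate 2 (0.52, adjusted p = 0.199) or either PU.1 cKO library (0.54 and 0.69, adjusted p = 0.274 and 0.168).

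Among the deepest falls Plbd1, a phospholipase B-like lysosomal protein, had 39.5 and 40.1 CPM in control and 5.02 and 3.09 CPM in PU.1 cKO (log2 fold change -3.29, SE 0.31, adjusted p = 0.000391). Nxpe2 fell from 35.6 and 43.6 CPM to 5.21 and 3.34 CPM (-3.21, adjusted p = 6.15e-05). Wfdc17, a secreted protein of myeloid cells, had 7.41 and 4.68 CPM in control and 0.13 and 0.38 CPM in PU.1 cKO, a fall of 23.9-fold with a 95% counting interval of 11.9 to 56.3, and Dmwd declined from 7.20 and 11.5 CPM to 1.46 and 0.76 CPM. Some large changes in CPM rested on control replicate 2. Myh9 had 377 and 1014 CPM in control and 256 and 191 CPM in PU.1 cKO, and its change of -1.64 became -0.75 (adjusted p = 0.212) without that library, its call also being lost without either PU.1 cKO library (-1.86 and -1.43, adjusted p = 0.167 and 0.227). Iqgap1 and Lcp1 lost their calls without it too, at -0.69 (adjusted p = 0.158) and -0.44 (adjusted p = 0.298), as they did without PU.1 cKO replicate 1 (-0.88 and -0.44, adjusted p = 0.241 and 0.414). The mitochondrial Rnr2 was called at -0.62 and stood at -0.20 (adjusted p = 0.459) without control replicate 1, and was not called without either PU.1 cKO library (-0.52 and -0.73, adjusted p = 0.471 and 0.255). Fcer2a, Nfam1, Plbd1, Nxpe2, Bcl2a1d, Ighg2b, Ighg3, Gprc5b, Ltbp4, Myh9, Iqgap1, Lcp1, Eef1b2, Fyn, Il6ra, Il9r, Gpr183, Ciita, H2-Oa, Bcl6, Nfkb2, Dock8, Zap70 and Bcl2l14 overlap other genes in the annotation, and without strand information, which the sources used here do not give, reads in the overlaps are uncertain.

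A second reference for PU.1 cKO is given by SpiB KO, whose cells carry floxed Spi1 without Cre but lack SpiB. In this contrast, which shares the PU.1 cKO libraries with the first, 1141 genes were DE (9.67%). Faim3, Bcl6, Cd40 and Bmf were lower in PU.1 cKO than in SpiB KO as well, by -0.79, -1.39, -0.67 and -1.85 on the log2 scale (adjusted p = 0.00163, 0.00046, 0.0151 and 0.000382). Ciita, Dock8 and Nfkb2 were not called there, at -0.46, -0.19 and -0.29. Bhlha15 stood at 9.94 and 9.75 CPM in SpiB KO, and 9.53 and 8.12 CPM in PU.1 cKO, a difference of -0.16 (adjusted p = 0.748).

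The effect in naive cells was then set beside the same contrast in cultured cells, which rests on separate libraries. Among 12161 genes tested with CD40L + IL-4, PU.1 cKO cells had 7.54% lower and 6.54% higher, and among 12008 with LPS + IL-4 they had 3.87% lower and 6.52% higher. Of the 819 genes lower in naive cells, 776 were tested with CD40L + IL-4, where 667 had the same sign (86.0%) and 276 were called lower (35.6%), and 761 with LPS + IL-4, where 532 had the same sign (69.9%) and 157 were called lower (20.6%). Of the 513 genes higher in naive cells, 156 of 481 were called higher with CD40L + IL-4 (32.4%) and 178 of 471 with LPS + IL-4 (37.8%), while 368 (76.5%) and 360 (76.4%) had the same sign. Over all genes tested at both stages, 50.6% lay below 0 with CD40L + IL-4 and 50.9% with LPS + IL-4. Calls in the opposite direction numbered 15 and 32 for the falls and 8 and 9 for the rises. DE in the same direction at all 3 stages were 131 falls and 113 rises, while 517 falls and 292 rises were called in naive cells and in neither culture. Genes of the MHC window are among those DE at all 3 stages. They include the rises of H2-Ea-ps, H2-Q2, H2-Q10 and H2-K2 and the falls of H2-Oa, H2-Ob and H2-Eb2. The counts across stages were not repeated without the window.

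Faim3 deepened its fall on culture, to 49.5 and 42.8 CPM in PU.1 cKO against 272 and 381 CPM in control with CD40L + IL-4 (log2 fold change -2.83), and to -2.86 with LPS + IL-4. Sdc1, which fell in naive cells, was higher in PU.1 cKO with CD40L + IL-4, at 10.6 and 14.2 CPM against 4.31 and 4.201 CPM in control. The difference between the stages, tested as the interaction of genotype and stage over all 24 libraries, was called for 1124 genes with CD40L + IL-4 (8.25% of 13625) and for 798 with LPS + IL-4 (5.86%).

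**Figure D5:**
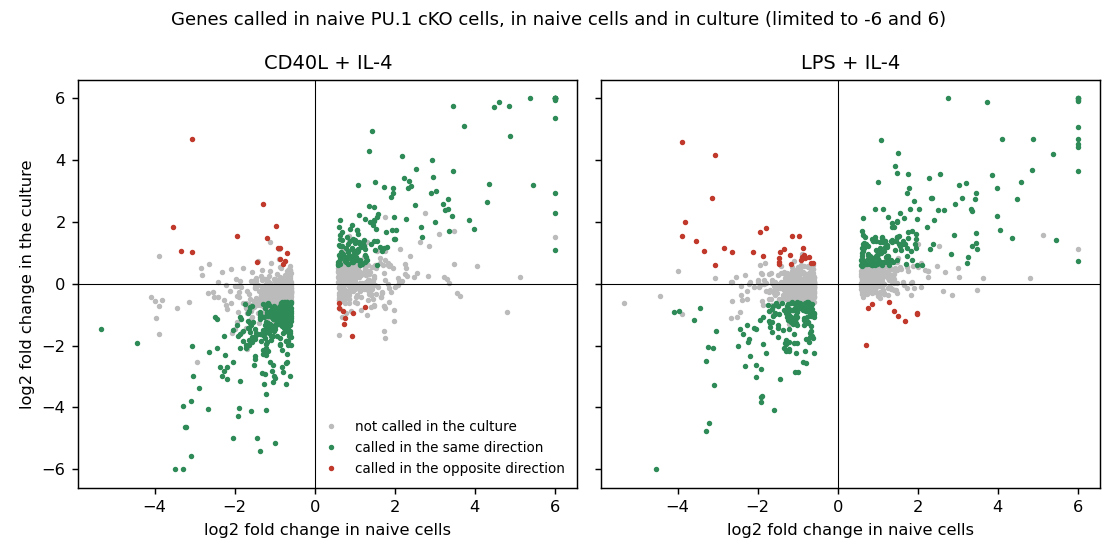
Log2 fold changes of PU.1 cKO minus control for genes DE in naive cells, on the x axis in naive cells and on the y axis in CD40L + IL-4 (left) or LPS + IL-4 cultures (right), limited to -6 and 6. Most falls keep their sign with CD40L + IL-4 (667 of 776), fewer with LPS + IL-4 (532 of 761).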

How the data were processed

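RNA-seq was carried out on sorted lymph node B cells. Raw counts per gene were deposited by the authors, who mapped reads to GRCm38/mm10 (Subread) and assigned unique alignments to RefSeq exons (featureCounts). Versions and strandedness are not given in the sources used here. The log2 RPKM values deposited by the authors for the 4 libraries served only as a filter alternative, and those of the other 20 libraries were not used. The extract protocol speaks of culture for every sample, so stage was taken from the titles.

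The 517 entries without a symbol (0.147% of naive counts) were left out. Tests covered genes that reached 0.5 CPM in 2 or more of the 4 libraries and were run with edgeR 4.0.16 in R 4.3.3 (quasi-likelihood, TMM, 8 naive libraries in the fit). Alternatives used limma 3.58.1 (voom, quantile), DESeq2 1.42.0, other filters, libraries left out and a replicate block. Removal of the MHC window was chosen after seeing the data. The code was tested on simulated data. Members and gene lists were chosen with earlier results of these data known. Named genes were Spi1, Spib, Fcer2a, Tnfrsf13c, Mybpc3, DE genes within 1 Mb of Spi1, the 10 largest falls and rises by fold (at least 5 CPM in the higher group, groups not overlapping) and by CPM, leaving out predicted genes and pseudogenes, and up to 5 DE members of each list. Members not called were also named, with their values. Counting intervals are exact and cover counting error only. Results for a few genes are not reported here.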

Additional observations from a re-analysis of the deposited data

Results flagged for a closer look

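For 53 of the 116 named genes considered here, the change of PU.1 cKO against control differed between naive and cultured cells. This was called by the edgeR interaction of genotype and stage (adjusted p under 0.15 and a difference over 1.5-fold). Each value is the log2 fold change in naive cells minus that in the culture. A difference was called for 35 genes with CD40L + IL-4 and 37 with LPS + IL-4, against 8.25% and 5.86% of all 13625 genes tested. Most named genes were chosen by their change in the same naive libraries, which favours such differences. The counts therefore say nothing of the named genes as a set.

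Against CD40L + IL-4 the differences were -4.83 for Igj, -3.66 for Ighg2b and -3.54 for Sdc1, and against LPS + IL-4 they were -5.42, -3.15 and -1.90. The differences were also -2.71 for Jun, -2.16 for Dusp4 and -1.50 for Dusp5 against CD40L + IL-4, and -2.10, -1.95 and -1.26 against LPS + IL-4, where Fos gave -3.69 and Dusp1 -3.11. Control replicate 1 was high in Fos and Dusp1, and its part in these values was not tested. They were -1.43 for Pik3cg, -1.27 for Pik3r5, -0.71 for Fyn and -1.11 for Il4ra against CD40L + IL-4, and -1.22, -1.36, -0.80 and -1.31 against LPS + IL-4.

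In the other direction, the naive fall was smaller than that with CD40L + IL-4 for Nfam1 (3.23), Bcl2a1d (2.48), Pirb (2.31), Csf2rb (2.19), Bcl2a1b (2.11), Faim3 (1.74), Nxpe2 (1.37), Fcer2a (1.09) and Cd40 (0.99), and than that with LPS + IL-4 for Pirb (1.90), Faim3 (1.82) and Bcl2a1b (1.77). The rise of Ackr3 in naive cells exceeded its change in culture by 5.70 and 4.66, and that of Bhlhe41 by 1.73 and 2.07.

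The remaining differences against CD40L + IL-4 were 5.72 for H2-M2, 2.84 for Emr1, 1.79 for Fcrl5, 1.77 for Zap70, 1.57 for S1pr3, 1.31 for Cd1d1, -0.88 for Pmaip1, -0.89 for Man1a, -0.94 for Rfng, -1.11 for Plxnd1, -1.15 for Pde2a, -1.43 for Bub1b, -1.79 for Tbx21 and -2.55 for Bmf. Those against LPS + IL-4 were 3.45 for Ltbp4, 3.06 for Gdpd3, 3.03 for H2-Q2, 2.63 for H2-Q10, 1.76 for H2-Q1, 1.49 for Ifi44, 1.22 for Id2, 0.82 for Spib, 0.76 for Ccne1, 0.71 for Eef1b2, -0.75 for Lcp1, -0.77 for Rfng, -0.89 for Spi1, -1.07 for Man1a, -1.18 for Bub1b, -1.45 for Prf1, -1.55 for Gpr183, -2.67 for Tbx21, -3.23 for Dmwd and -3.60 for S1pr2.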

How the results depend on the processing

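No named gene reversed its direction. Medians of several lists changed sign with 1 library left out, among them those of interferon-stimulated genes (from -0.47 to 0.05 without control replicate 2) and of T cell (from -0.03 to 0.41) and NK cell markers (from -0.21 to 0.45, both without control replicate 1). Of the 116 named DE genes 66 kept their call with each of the 4 libraries left out, and 60 of the 118 named genes kept their side of the thresholds under every setting. The 1332 DE genes in naive cells became 736 at an adjusted p under 0.05, 1260 with DESeq2, 1213 with voom, 1343 with DESeq2's size factors and 1680 with no filter on low counts, and ranged from 618 to 2044 with 1 library left out. For the difference from the CD40L + IL-4 culture, 1124 genes became 526 at an adjusted p under 0.05 and 687 to 1360 with a library left out. Of the 1124, 536 were higher and 588 lower, a balance that turned to 599 and 520 with DESeq2's size factors, 680 and 609 with DESeq2, 559 and 460 with voom and 845 and 680 with no filter. For that from the LPS + IL-4 culture, 798 became 299, 1533 with no filter, and 354 to 1270 with a library left out. Voom called 848 genes in this comparison, 420 of them higher, against 315 higher of 798 in edgeR. Within CD40L + IL-4 cultures 1712 genes became 1072 at an adjusted p under 0.05 and 865 to 1415 with a library left out. Causes of these shifts were not tested.

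The replicate block, which pairs libraries by number, gave 1605 DE genes in naive cells and 1336 against SpiB KO (1141 without it). Same-numbered libraries correlated in their deviations at 0.114 to 0.295, but labels give the number no meaning and there are only 2 pairs. The block changed the call of 3 named genes, Irak2, Rfng and Rnr2.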
